A study of Homo sapiens with 9 samples.

Results

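The cytochrome P450, UDP-glucuronosyltransferase (UGT) and cytosolic glutathione transferase (GST) genes were followed in RBE cells in which IDH1 or JOSD2 had been knocked down. The set comprised every protein-coding gene of the table named as a CYP, except the sterol demethylase gene of the CYP51 family, as a UGT1 or UGT2, or as a GST of the alpha, kappa, mu, omega, pi, theta or zeta class. It held 64 of the 36225 genes measured: 41 P450, 10 UGT and 13 GST genes. A further 11 genes had matching names but were not annotated as protein coding and were left out.

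RBE is an established human line derived from a cholangiocarcinoma inside the liver, and the series title names mutant IDH1. All cells had received a lentivirus, carrying a scramble hairpin in the control group (control), a hairpin against IDH1 (shIDH1) or a hairpin against JOSD2 (shJOSD2). Each group held 3 libraries of poly(A) RNA, 9 in all. The labels name 1 treatment per group and do not say whether each library had its own infection. The p-values thus rest on differences among libraries that may be purely technical.

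P450 enzymes insert an oxygen atom into drugs, carcinogens, fatty acids, steroids and vitamins, with electrons passed on by a reductase. UGT enzymes then attach glucuronic acid and GST enzymes attach glutathione, which makes the product more soluble and easier to export in bile or urine. Hepatocytes carry high levels of many of these enzymes, and bile duct cells a smaller set. The aryl hydrocarbon receptor binds DNA at a core GCGTG and is the best known activator of CYP1A1 and CYP1B1, and NFE2L2 acts through antioxidant response elements near several GST genes.

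The libraries held 66036276 to 71612713 deposited counts, of which 0.0449% to 0.0618% fell on the 64 genes. IDH1 stood at 44.0 ± 4.44 FPKM (a fragment measure scaled by gene length and depth, SD, n = 3) in control and 12.6 ± 0.446 FPKM in shIDH1 libraries. With shJOSD2 it was at 34.5 ± 1.56 FPKM, also lower than in control (log2 change -0.50 ± 0.07 SE, edgeR adjusted p = 8.66e-05). JOSD2 fell from 6.37 ± 0.260 FPKM in control to 0.795 ± 0.101 FPKM with shJOSD2, and to 1.68 ± 0.174 FPKM with shIDH1 (SD, n = 3). The bile duct keratins KRT19, KRT18 and KRT8 reached at least 318 FPKM in every library. KRT19 was at 497 to 599 FPKM in control, 511 to 532 with shIDH1 and 408 to 423 with shJOSD2. KRT18 was at 379 to 417 FPKM in control, 514 to 544 with shIDH1 and 372 to 385 with shJOSD2. KRT8 was at 320 to 397, 528 to 541 and 318 to 330 FPKM in these groups. KRT7, the other keratin of that list, was at 312 to 403 FPKM in control, 186 to 207 with shIDH1 and 309 to 322 with shJOSD2. KRT7 fell in both knockdowns (edgeR adjusted p = 5.58e-06 and 0.0104). The summed level of 13 biliary markers was 1675 to 1929 FPKM in control libraries, 2124 to 2136 with shIDH1 and 1614 to 1662 with shJOSD2. Of 7 endothelial markers, 7 stayed under 1 FPKM, and the sum of 9 leukocyte markers was 32.4 to 40.2 FPKM in control, 26.6 to 29.9 with shIDH1 and 25.3 to 33.4 with shJOSD2. The sum of 9 fibroblast markers was 20.3 to 23.1 FPKM in control, 42.9 to 45.6 with shIDH1 and 45.0 to 46.2 with shJOSD2. Control replicate 1 stood apart from the other control libraries in the hepatocyte markers, whose summed level was 51.6, 108 and 114 FPKM in control replicates 1 to 3, 136 to 147 in shIDH1 and 78.9 to 82.4 in shJOSD2 libraries. APOA1, the main protein of high-density lipoprotein, was at 2.91, 40.0 and 45.5 FPKM in control replicates 1 to 3 and at 2.51 to 6.24 FPKM in the knockdown libraries.

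Promoters are shown for 6 of the genes whose changes are described below. CYP1A1 and CYP2S1 fell in both knockdowns, CYP4V2 and GSTA4 rose in both, GSTM4 moved in opposite directions, and GSTP1 differed among control libraries. These 6 were picked by values already seen, so their motifs do not describe the set. Each promoter is the run of 250 bases before the RefSeq start (GRCh38.p14), 5′ to 3′ on the gene's strand. Capitals mark GCGTG, which reads CACGC on the other strand, or TGACNNNGC, the antioxidant element.
CYP1A1 chr15:74725529-74725778 (minus strand): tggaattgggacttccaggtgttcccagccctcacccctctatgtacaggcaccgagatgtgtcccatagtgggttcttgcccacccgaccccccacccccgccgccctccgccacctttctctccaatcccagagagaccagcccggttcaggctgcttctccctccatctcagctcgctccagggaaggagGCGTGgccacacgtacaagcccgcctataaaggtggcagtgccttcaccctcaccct
CYP2S1 chr19:41192969-41193218 (plus strand): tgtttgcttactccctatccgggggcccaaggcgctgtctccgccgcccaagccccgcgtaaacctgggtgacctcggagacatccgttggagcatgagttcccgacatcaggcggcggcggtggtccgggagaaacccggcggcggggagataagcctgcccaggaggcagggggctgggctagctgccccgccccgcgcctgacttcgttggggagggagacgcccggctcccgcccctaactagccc
CYP4V2 chr4:186191317-186191566 (plus strand): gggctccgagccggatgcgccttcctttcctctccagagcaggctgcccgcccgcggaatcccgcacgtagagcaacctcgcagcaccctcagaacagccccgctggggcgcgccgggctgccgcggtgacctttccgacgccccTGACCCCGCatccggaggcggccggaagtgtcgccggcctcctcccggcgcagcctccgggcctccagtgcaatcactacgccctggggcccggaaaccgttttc
GSTA4 chr6:52995285-52995534 (minus strand): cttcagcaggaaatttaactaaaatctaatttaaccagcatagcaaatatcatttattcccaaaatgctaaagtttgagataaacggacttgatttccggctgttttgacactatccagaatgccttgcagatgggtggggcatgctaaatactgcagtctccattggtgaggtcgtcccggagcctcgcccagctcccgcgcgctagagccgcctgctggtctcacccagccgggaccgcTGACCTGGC
GSTM4 chr1:109655849-109656098 (plus strand): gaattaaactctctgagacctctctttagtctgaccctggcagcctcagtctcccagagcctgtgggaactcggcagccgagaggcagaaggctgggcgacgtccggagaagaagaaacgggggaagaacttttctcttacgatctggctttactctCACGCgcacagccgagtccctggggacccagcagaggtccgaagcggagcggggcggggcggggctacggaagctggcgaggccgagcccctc
GSTP1 chr11:67583562-67583811 (plus strand): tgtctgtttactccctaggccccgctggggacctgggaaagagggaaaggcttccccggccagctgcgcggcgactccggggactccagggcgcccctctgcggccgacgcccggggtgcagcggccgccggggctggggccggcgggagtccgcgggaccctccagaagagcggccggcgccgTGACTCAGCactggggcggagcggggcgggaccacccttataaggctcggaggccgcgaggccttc
RefSeq windows were matched for 51 of the 64 genes and gave 66 windows. CYP1B1 had no matched window. Some genes gave several windows, among them CYP19A1, whose windows all lacked both motifs. The shares below are thus of windows and not of genes. GCGTG on either strand was in 13 of these 66 windows (19.7%) and in 32.2% of all 35116 promoter windows of the same length. TGACNNNGC on either strand was in 10 of the 66 (15.2%) and in 10.9% of all windows. The CYP1A1 and GSTM4 windows held the first motif, the CYP4V2, GSTA4 and GSTP1 windows the second, and the CYP2S1 window neither in these letters. Among windows not shown, those of CYP3A5 and UGT2A3 held neither motif, that of GSTZ1 the first and that of GSTO1 the second. No transcription factor was measured at these sites.

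Most of the 64 genes were low, with 46 under 1 FPKM in every group. A mean of at least 1 FPKM in at least 1 group was reached by 18 genes (9 P450, 1 UGT and 8 GST), and at least 10 FPKM by 6. In control cells the highest levels were those of GSTO1 (32.6 FPKM), GSTK1 (14.7), CYP2S1 (12.2), CYP1B1 (11.2), CYP24A1 (9.88) and GSTT2B (8.84). The classical hepatocyte enzymes were near the floor: CYP3A4, the main drug-oxidising P450 of adult liver, had at most 0.109 FPKM in a library, and CYP2E1, the ethanol-oxidising P450, at most 0.357. CYP7A1, the rate-limiting enzyme of bile acid synthesis, had at most 7 counts in a library and CYP1A2, which oxidises caffeine, at most 9. Of the 64 genes, 48 had enough counts to be tested and 16 did not, with at most 30 counts or 0.321 FPKM in a library.

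**Figure D1:**
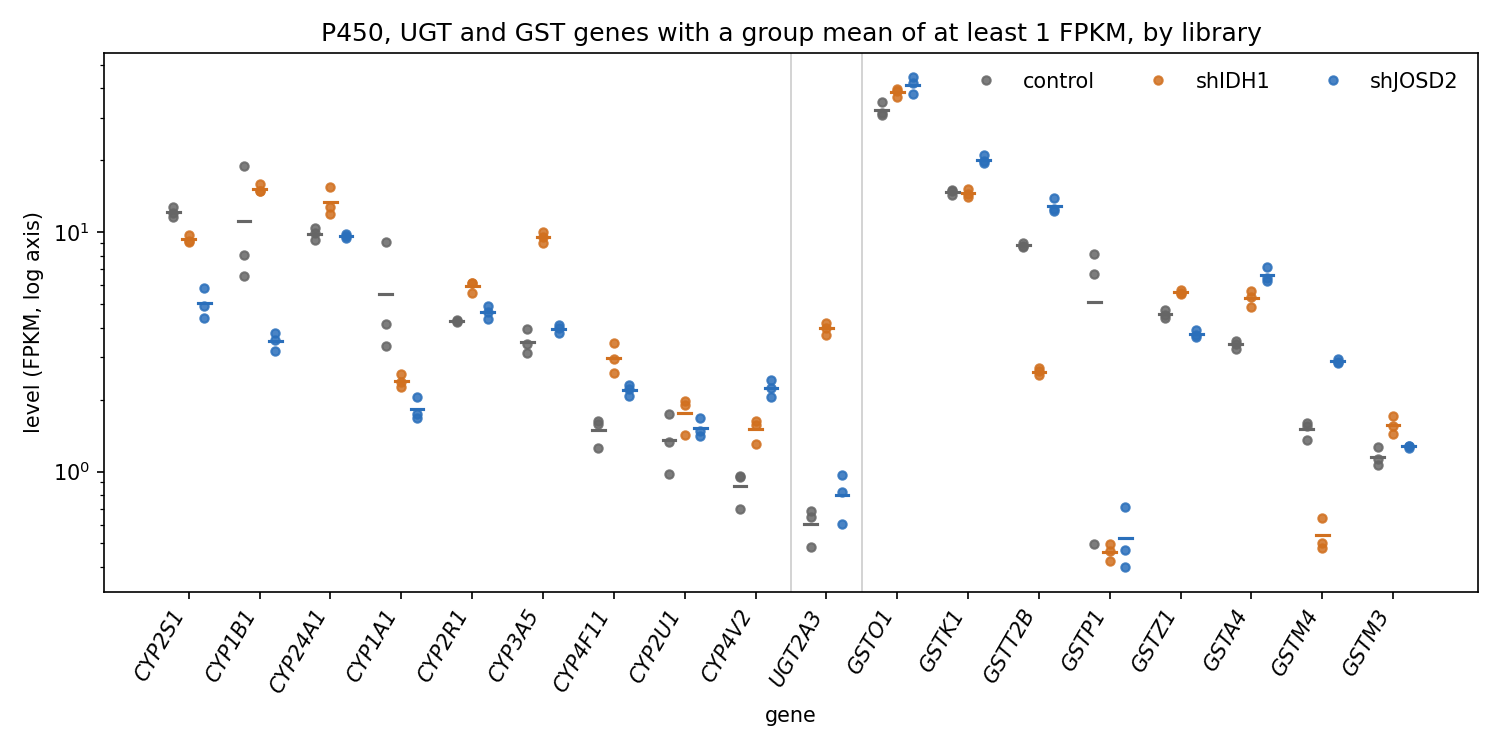
Level of the 18 genes with a group mean of at least 1 FPKM, by gene (x axis) in FPKM on a log axis (y axis); points are libraries, short bars group means over 3 libraries. CYP1A1, CYP1B1 and GSTP1 spread widely among the grey control points, while GSTT2B and GSTM4 lie lowest in shIDH1 and highest in shJOSD2.

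Against control, 13 of the 48 tested genes rose and 7 fell in shIDH1 cells, where 50.1% of all 21492 tested genes were called (24.5% higher and 25.6% lower). In shJOSD2 cells 9 rose and 5 fell, against 38.3% of all tested genes called (18.2% higher and 20.1% lower). Between the knockdowns, 11 genes were higher and 7 lower in shIDH1 than in shJOSD2 cells, against 44.8% called (20.8% higher and 24.0% lower). A call is an adjusted p under 0.05 in edgeR's quasi-likelihood F-test, adjusted by Benjamini-Hochberg over the 21492 genes. The share of the 48 genes called was thus no higher than that of all genes in any of the 3 comparisons. The median log2 change of the tested genes was 0.38 in shIDH1 and 0.02 in shJOSD2 cells, and 0.04 between them, where all tested genes had medians of 0.01, 0.03 and -0.06. Scaling by library totals in place of TMM factors moved the median of all genes to 0.18 in shJOSD2 against control and to -0.21 between the knockdowns, and split the calls between the knockdowns into 9 higher and 10 lower (46.4% of all genes called, 15.4% higher and 31.0% lower). Groups were fully separated in FPKM for 23, 22 and 27 of the 48 genes in the 3 comparisons, against 56.9%, 51.7% and 58.4% of all tested genes. With control replicate 1 as the lone control, 54 of the 64 genes had enough counts to be tested; 13 rose and 4 fell in shIDH1 cells and 6 rose and 4 fell in shJOSD2 cells, against 34.8% (16.9% higher, 18.0% lower) and 22.9% (10.4% higher, 12.5% lower) of all tested genes called. Without that library 50 were tested, and the counts were 10 and 9, and 10 and 5, against 47.3% (23.6% higher, 23.7% lower) and 36.5% (17.7% higher, 18.9% lower).

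Among the 18 genes of at least 1 FPKM, 10 rose and 5 fell in shIDH1 cells, against 67.0% of all genes of that level called. In shJOSD2 cells 6 rose and 5 fell, against 52.1%. Between the knockdowns 9 were higher and 4 lower in shIDH1 cells, against 62.2%. CYP2U1 was the one gene of the 18 called in none of the 3 comparisons. Both knockdowns were set against the same 3 control libraries, so their changes are not independent.

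**Figure D2:**
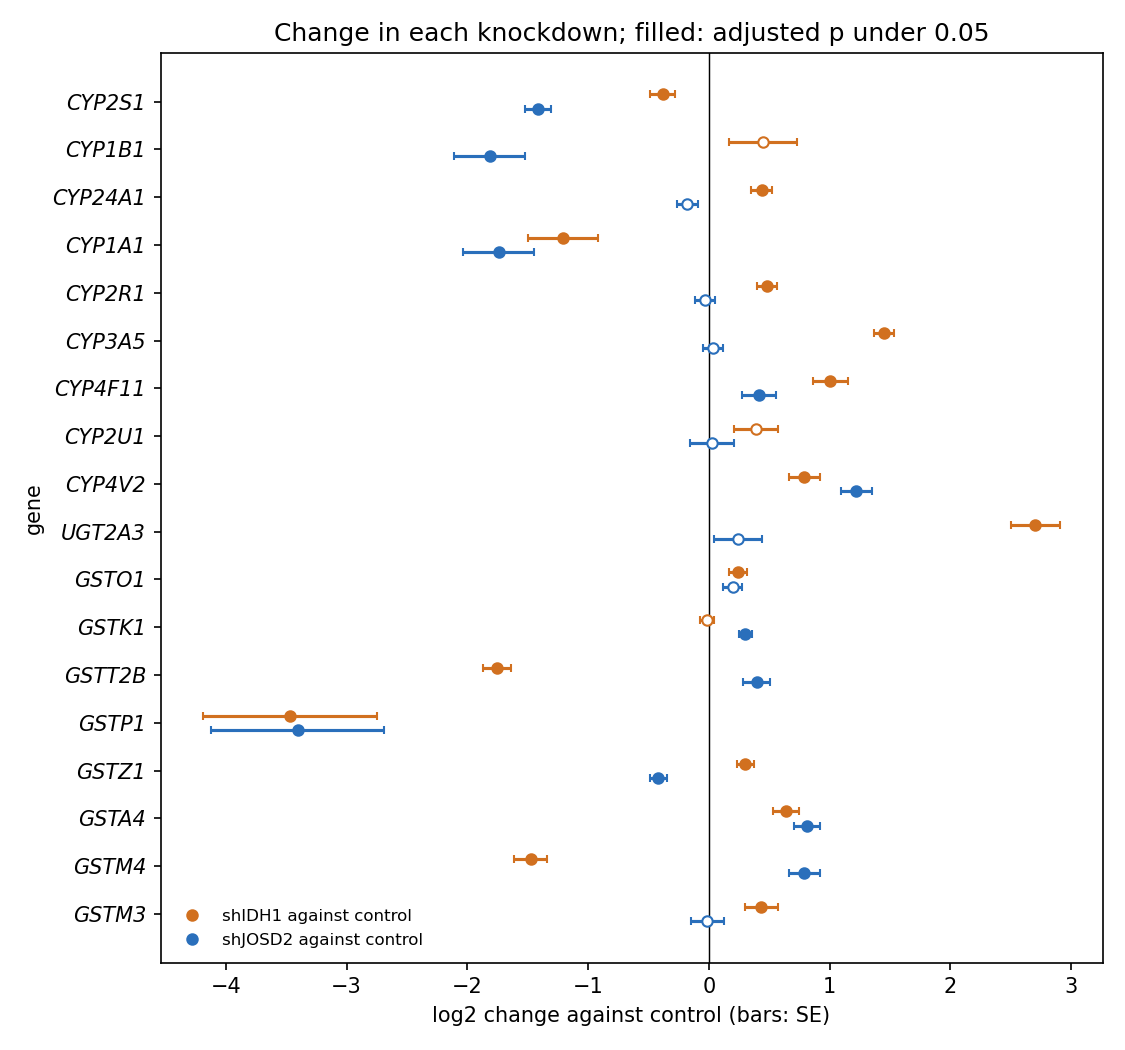
Fitted log2 change against control (x axis) of the same 18 genes (y axis) in shIDH1 (orange) and shJOSD2 (blue) cells; bars are SE and filled points have an edgeR adjusted p under 0.05. UGT2A3 and CYP3A5 are filled and far to the right in shIDH1 and open in shJOSD2, GSTT2B and GSTM4 are filled on opposite sides, and the bars of GSTP1 are the widest.

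The P450 genes of foreign compounds (families CYP1 to CYP3 without CYP2R1 and CYP2U1) held 17 genes, of which 12 were tested. CYP2R1 is counted below with the vitamin genes and CYP2U1 with the fatty acid genes. In shIDH1 cells 1 rose and 2 fell, in shJOSD2 cells 0 rose and 3 fell, and between the knockdowns 3 were higher and 1 lower in shIDH1, where 50.1%, 38.3% and 44.8% of all tested genes were called. CYP3A5 (chr7:99648194-99679996, minus strand, GRCh38) is the CYP3A enzyme found outside the liver as well as in it. It stood at 3.96, 3.40 and 3.12 FPKM in control replicates 1 to 3, at 10.1, 9.59 and 9.04 FPKM in shIDH1 and at 4.09, 3.99 and 3.78 FPKM in shJOSD2 replicates. All shIDH1 libraries lay above all others, and control and shJOSD2 libraries overlapped. CYP3A5 rose 2.73-fold in shIDH1 cells (log2 change 1.45 ± 0.08 SE, edgeR adjusted p = 2.48e-08). In shJOSD2 cells the log2 change was 0.03 ± 0.08 SE (edgeR adjusted p = 0.787), and shIDH1 cells were 1.42 ± 0.08 SE above shJOSD2 cells (edgeR adjusted p = 4.7e-08). Its longest coding transcript shares 0.404% of its 100-base windows with CYP3A4, whose level was at most 0.109 FPKM.

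CYP2S1 (chr19:41193210-41207539, plus strand), an extrahepatic P450 of epithelia, fell in both knockdowns. Its levels were 11.6, 12.1 and 12.8 FPKM in control, 9.14, 9.18 and 9.74 FPKM in shIDH1 and 4.91, 4.37 and 5.87 FPKM in shJOSD2 replicates 1 to 3. The 3 groups did not overlap, and the order was control, shIDH1, shJOSD2. The log2 change was -0.38 ± 0.10 SE in shIDH1 cells (edgeR adjusted p = 0.00824), and this call was lost with control replicate 1 as the lone control (log2 change -0.27, edgeR adjusted p = 0.193). In shJOSD2 cells the log2 change was -1.42 ± 0.11 SE (edgeR adjusted p = 9.1e-07). Cells with shIDH1 were 1.04 ± 0.11 SE above those with shJOSD2 on the log2 scale (edgeR adjusted p = 5.74e-06).

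CYP1A1 (chr15:74719542-74725536, minus strand) and CYP1B1 (chr2:38066973-38076154, minus strand) encode the P450 enzymes that activate polycyclic hydrocarbons. CYP1A1 stood at 3.33, 4.12 and 9.10 FPKM in control replicates 1 to 3, at 2.55, 2.26 and 2.36 FPKM in shIDH1 and at 1.74, 1.67 and 2.05 FPKM in shJOSD2 replicates. CYP1B1 stood at 8.04, 6.58 and 18.9 FPKM in control, 15.9, 14.9 and 14.9 FPKM in shIDH1 and 3.54, 3.80 and 3.18 FPKM in shJOSD2 replicates. Both genes were more than 2 times as high in control replicate 3 as in either other control library. Of 13258 genes of at least 1 FPKM, 30 (0.226%) had that pattern. The same pattern was found for 54 genes (0.407%) in control replicate 1 and 47 (0.355%) in control replicate 2. For CYP1A1, all control libraries lay above all knockdown libraries. For CYP1B1, the shIDH1 libraries lay inside the control range and the shJOSD2 libraries below it.

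CYP1A1 fell in shIDH1 cells (log2 change -1.21 ± 0.29 SE, edgeR adjusted p = 0.00378) and in shJOSD2 cells (-1.74 ± 0.29 SE, edgeR adjusted p = 0.000507). Without control replicate 3 these changes were -0.64 (edgeR adjusted p = 0.005) and -1.18 (edgeR adjusted p = 0.000156). With control replicate 1 alone they were -0.44 (edgeR adjusted p = 0.0753) and -0.98 (edgeR adjusted p = 0.00194). CYP1B1 fell in shJOSD2 cells (-1.81 ± 0.30 SE, edgeR adjusted p = 0.000388), and by 1.20 on the log2 scale without control replicate 3 (edgeR adjusted p = 3.43e-06). Its log2 change in shIDH1 cells was 0.45 ± 0.28 SE (edgeR adjusted p = 0.215), and 1.07 without control replicate 3, which passed the test (edgeR adjusted p = 2.82e-06). CYP1B1 was 4.80-fold higher in shIDH1 than in shJOSD2 cells (2.26 ± 0.30 SE, edgeR adjusted p = 4.99e-05), whereas CYP1A1 differed by 0.53 ± 0.29 SE (edgeR adjusted p = 0.163). CYP1B1 overlaps RMDN2 and CYP1B1-AS1 on the other strand, which had at most 0.356 FPKM in a library.

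**Figure D3:**
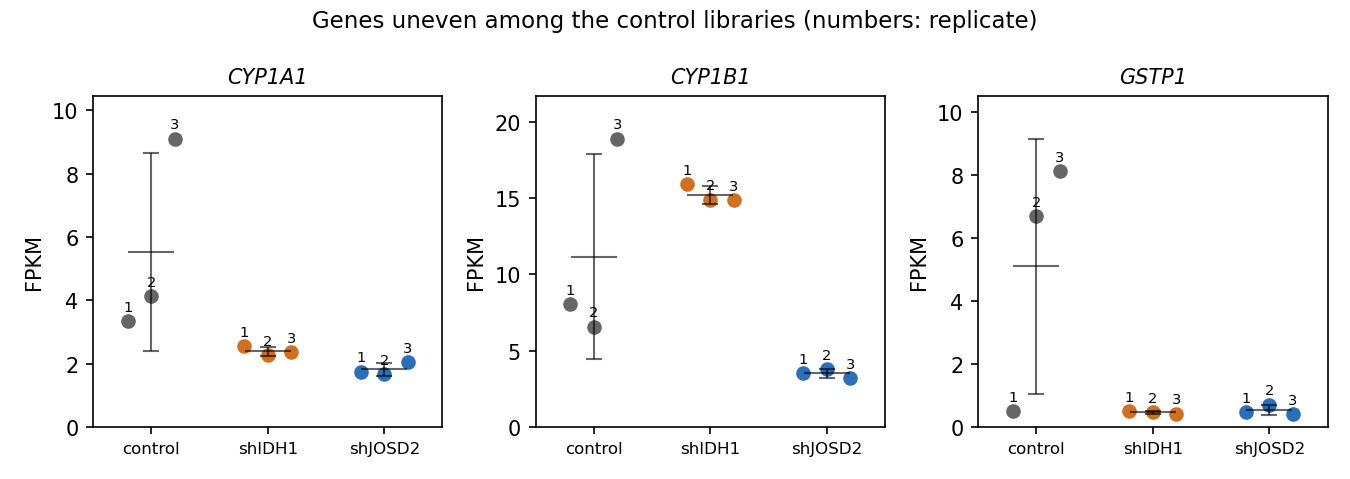
Levels in FPKM (y axis, from 0) of CYP1A1, CYP1B1 and GSTP1 in control, shIDH1 and shJOSD2 libraries (x axis); points carry the replicate number, the line is the mean and the bars the SD of 3 libraries. Control replicate 3 is the highest control point for all 3 genes, and control replicate 1 of GSTP1 lies at 0.495 FPKM among the knockdown libraries.

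The fatty acid P450 genes held 9 genes, of which 6 were tested, and 3 rose and 0 fell in each knockdown against control. That share, 50.0%, was close to the 50.1% of all tested genes called in shIDH1 cells, and 38.3% were called in shJOSD2 cells. CYP4V2 (chr4:186191567-186213463, plus strand), a fatty acid hydroxylase whose loss causes a crystalline eye disease, stood at 0.951, 0.694 and 0.954 FPKM in control, 1.57, 1.62 and 1.31 FPKM in shIDH1 and 2.06, 2.23 and 2.41 FPKM in shJOSD2 replicates. The groups did not overlap, and the shJOSD2 libraries were the highest. It rose by 0.79 ± 0.13 SE on the log2 scale in shIDH1 cells (edgeR adjusted p = 0.000213) and by 1.22 ± 0.13 SE in shJOSD2 cells (edgeR adjusted p = 1.3e-05). The difference between the knockdowns (-0.43 ± 0.13 SE, edgeR adjusted p = 0.0144) was lost without shIDH1 replicate 3 or without shJOSD2 replicate 3. CYP4V2 shares 5.30% of its transcript windows with KLKB1, which overlaps it on the same strand and had at most 0.339 FPKM.

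CYP4F11, a hydroxylase of long-chain fatty acids and vitamin K, stood at 1.62, 1.25 and 1.59 FPKM in control, 2.58, 2.95 and 3.45 FPKM in shIDH1 and 2.22, 2.31 and 2.06 FPKM in shJOSD2 replicates. All shIDH1 libraries were the highest and all control libraries the lowest. The rise in shIDH1 cells was 1.01 ± 0.14 SE (log2, edgeR adjusted p = 7.75e-05). In shJOSD2 cells it was 0.41 ± 0.14 SE (edgeR adjusted p = 0.0381), a call lost in 7 of 20 alternatives, among them control replicate 1 alone (edgeR adjusted p = 0.307). CYP2U1, a fatty acid hydroxylase, stood at 1.73, 0.981 and 1.33 FPKM in control, 1.96, 1.90 and 1.43 FPKM in shIDH1 and 1.41, 1.68 and 1.48 FPKM in shJOSD2 replicates, and the groups overlapped. Its log2 change in shIDH1 cells was 0.39 ± 0.18 SE (edgeR adjusted p = 0.0987), and 0.60 without control replicate 1 (edgeR adjusted p = 0.0148). CYP4F3 rose in shIDH1 cells (1.01, edgeR adjusted p = 0.0228) and CYP4F2 in shJOSD2 cells (1.46, edgeR adjusted p = 0.0186), each at a level under 1 FPKM, and these calls were lost in 5 and 2 of the 19 alternatives that gave a value.

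The vitamin A and D P450 genes held 6 genes, all tested, of which 2 rose and 0 fell in shIDH1 cells and 0 were called in shJOSD2 cells, against 50.1% and 38.3% of all tested genes. CYP24A1, the enzyme that inactivates vitamin D, stood at 10.4, 9.91 and 9.31 FPKM in control, 15.5, 12.0 and 12.8 FPKM in shIDH1 and 9.62, 9.89 and 9.48 FPKM in shJOSD2 replicates. CYP2R1, the main 25-hydroxylase that activates vitamin D in liver, stood at 4.28, 4.23 and 4.31 FPKM in control, 5.59, 6.13 and 6.17 FPKM in shIDH1 and 4.34, 4.91 and 4.63 FPKM in shJOSD2 replicates. For both genes every shIDH1 library lay above every library of the other groups. CYP24A1 rose by 0.44 ± 0.09 SE (log2, edgeR adjusted p = 0.00105) and CYP2R1 by 0.48 ± 0.08 SE (edgeR adjusted p = 0.000357) in shIDH1 cells. Their changes in shJOSD2 cells were -0.18 ± 0.09 SE (edgeR adjusted p = 0.128) and -0.03 ± 0.08 SE (edgeR adjusted p = 0.791). Against shJOSD2 cells, shIDH1 cells were higher by 0.62 ± 0.09 SE for CYP24A1 (edgeR adjusted p = 8.62e-05) and by 0.51 ± 0.08 SE for CYP2R1 (edgeR adjusted p = 0.000246).

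The steroid hormone P450 genes (2 of 3 tested) and CYP20A1, a P450 of unsettled substrate, had 0 calls in all 3 comparisons by edgeR. Of all tested genes 50.1%, 38.3% and 44.8% were called. CYP19A1, a steroid hormone P450, was at 0.0324, 0.160 and 0.218 FPKM in control replicates 1 to 3. Its log2 change in shIDH1 cells was -0.59 (edgeR adjusted p = 0.379). It was -1.05 without control replicate 1 (edgeR adjusted p = 0.0127) and 1.54 with that replicate as the lone control. In shJOSD2 cells it was -0.05, and 2.07 with the lone control. Among the bile acid and oxysterol P450 genes, 3 of 5 were tested and 0 were called against control, beside the same 50.1% and 38.3%. CYP27A1 of this group was at 0.0358, 0.425 and 0.319 FPKM in control replicates 1 to 3. Its log2 change in shIDH1 cells was -1.75 (edgeR adjusted p = 0.106). Without control replicate 1 it was -2.25 (edgeR adjusted p = 0.0201), and with that replicate as the lone control it was 0.97. CYP7B1, an oxysterol hydroxylase, was higher in shIDH1 than in shJOSD2 cells (0.86 ± 0.31 SE, edgeR adjusted p = 0.0378), a call lost in 8 of the 19 alternatives that gave a value.

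The UGT genes held 10 genes, of which 6 were tested. Against control, 2 rose and 0 fell in shIDH1 cells, and 1 rose and 0 fell in shJOSD2 cells, where 50.1% and 38.3% of all tested genes were called. UGT2A3 (chr4:68928463-68951804, minus strand), which glucuronidates bile acids, was the one UGT gene above 1 FPKM in a group. It stood at 0.484, 0.647 and 0.685 FPKM in control, 4.19, 3.99 and 3.74 FPKM in shIDH1 and 0.963, 0.601 and 0.820 FPKM in shJOSD2 replicates. The shIDH1 libraries lay far above all others, and control and shJOSD2 libraries overlapped. UGT2A3 rose 6.51-fold in shIDH1 cells (log2 change 2.70 ± 0.20 SE, edgeR adjusted p = 2.62e-07), with 0.24 ± 0.20 SE in shJOSD2 cells (edgeR adjusted p = 0.378). Between the knockdowns the difference was 2.46 ± 0.20 SE (edgeR adjusted p = 7.9e-07). Its longest coding transcript shared no 100-base window with another gene.

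UGT2B7, a liver UGT that glucuronidates morphine and steroids, was low, at 0.204, 0.0823 and 0.0715 FPKM in control, 0.996, 0.477 and 0.887 FPKM in shIDH1 and 0.435, 0.479 and 0.379 FPKM in shJOSD2 replicates. Those levels rest on 12 to 34 counts per control library, 77 to 164 in shIDH1 and 60 to 77 in shJOSD2 libraries. UGT2B7 rose in shIDH1 cells (2.66 ± 0.42 SE, edgeR adjusted p = 0.000189) and in shJOSD2 cells (1.67 ± 0.42 SE, edgeR adjusted p = 0.00727). The second call was lost with control replicate 1 alone (0.97, edgeR adjusted p = 0.19). The UGT1A genes share their last exons, and 33.2% to 75.6% of the transcript windows of the 5 UGT1A genes also occur in other UGT1A genes, so their counts could have been split or withheld in counting. The highest level of a UGT1A gene in a library was 0.251 FPKM.

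Single markers of other epithelia rose beside CYP3A5 and UGT2A3, while other members of the same lists fell. The summed level of the intestinal epithelium markers (6 of 8 in the table) was 5.64 to 7.13 FPKM in control libraries, 18.5 to 20.3 with shIDH1 and 8.70 to 9.02 with shJOSD2. Most of that rise was CDH17, an intestinal cadherin, at 1.74 to 2.62 FPKM in control and 13.7 to 15.8 FPKM in shIDH1 libraries. VIL1 was the other marker above 1 FPKM and the other one that rose, whereas MUC2, CDX1 and CDX2 fell in shIDH1 cells and, like LGALS4, stayed under 1 FPKM in every library. The median log2 change of the 6 markers was -0.88, and 50.1% of all tested genes were called in shIDH1 cells. CDX1, an intestinal transcription factor, was at 0.0307, 0.721 and 0.609 FPKM in control replicates 1 to 3 and at 0.0546 FPKM or less in shIDH1 libraries, so that control replicate 1 lay among the latter. CDX2 stood at 0, 0.265 and 0.374 FPKM in control replicates 1 to 3 and at 0.0228 FPKM or less in shIDH1 libraries.

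The hepatocyte sum was highest in shIDH1 libraries, but of the 20 markers 5 rose and 8 fell there, with a median log2 change of -0.41. Of all tested genes 50.1% were called in that comparison (24.5% higher and 25.6% lower), with a median of 0.01. The rise of the sum was mostly FGB, a fibrinogen chain, at 1.53 to 1.87 FPKM in control and 41.9 to 44.7 FPKM in shIDH1 libraries, and FGA, FGG, AMBP and SERPINA1 also rose. Those that fell were ALB, APOA1, APOA2, APOB, AHSG, RBP4, HP and C3. In shJOSD2 cells 8 rose and 7 fell, against 38.3% of all tested genes called (18.2% higher and 20.1% lower). For most of the markers that fell in shIDH1 cells, control replicate 1 lay far below control replicates 2 and 3. ALB, for example, was at 0.104, 1.23 and 1.43 FPKM in control replicates 1 to 3 and at 0.131 to 0.162 FPKM in shIDH1 libraries. The part of either list in the changes of CYP3A5 and UGT2A3 was not tested, and in bulk RNA more cells of a type cannot be told apart from more RNA per cell.

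**Figure D4:**
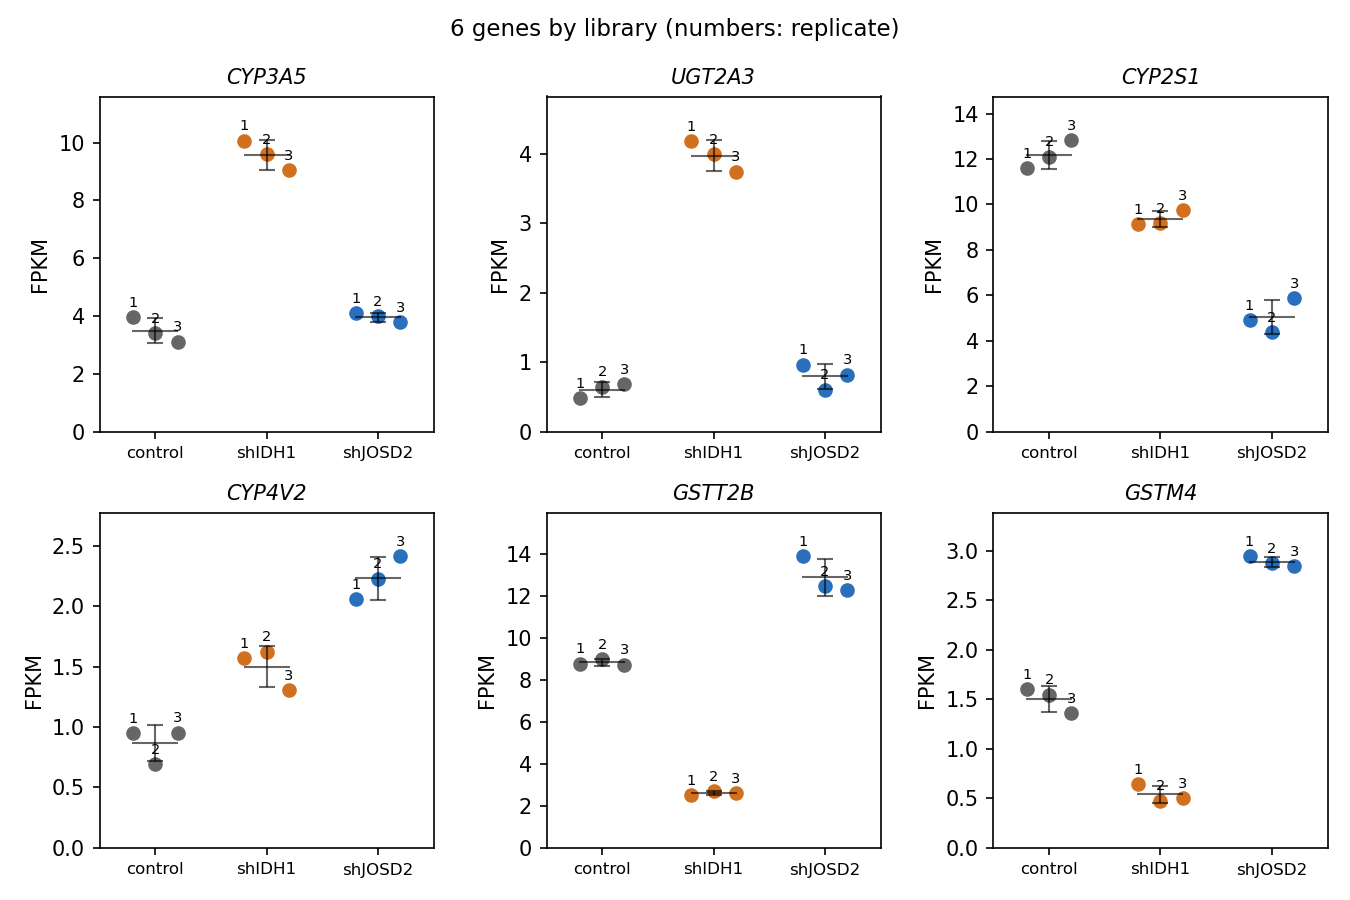
Levels in FPKM (y axis, from 0) of CYP3A5, UGT2A3, CYP2S1, CYP4V2, GSTT2B and GSTM4 in control, shIDH1 and shJOSD2 libraries (x axis); points carry the replicate number, the line is the mean and the bars the SD of 3 libraries. CYP3A5 and UGT2A3 stand out in shIDH1, CYP2S1 is lowest and CYP4V2 highest in shJOSD2, and GSTT2B and GSTM4 are low in shIDH1 and high in shJOSD2.

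The GST genes conjugate glutathione to reactive compounds. Of 13 GST genes, 12 were tested: 5 rose and 5 fell in shIDH1 cells, 5 rose and 2 fell in shJOSD2 cells, and 2 were higher and 5 lower in shIDH1 than in shJOSD2 cells. Of all tested genes 50.1%, 38.3% and 44.8% were called, and of those of at least 1 FPKM, a level that 8 of the GST genes reached, 67.0%, 52.1% and 62.2%. GSTT2B (chr22:23957414-23961195, minus strand), a theta class enzyme that acts on sulfate esters and peroxides, moved in opposite directions. It stood at 8.79, 9.01 and 8.73 FPKM in control, 2.52, 2.70 and 2.62 FPKM in shIDH1 and 13.9, 12.5 and 12.3 FPKM in shJOSD2 replicates. The 3 groups did not overlap. GSTT2B fell 3.37-fold in shIDH1 cells (log2 change -1.75 ± 0.12 SE, edgeR adjusted p = 1.05e-07) and rose in shJOSD2 cells (0.40 ± 0.11 SE, edgeR adjusted p = 0.0138). The rise was lost with control replicate 1 alone (0.44, edgeR adjusted p = 0.0959) and without shJOSD2 replicate 1. Between the knockdowns the difference was -2.15 ± 0.12 SE (edgeR adjusted p = 3.64e-08).

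GSTT2B shares 80.0% of its 100-base transcript windows with GSTT2, its inverted neighbour, so reads of the 2 copies could have been split. GSTT2, which the annotation does not class as protein coding, stood at 2.64, 1.18 and 1.21 FPKM in control, 0.463, 0.473 and 0.238 FPKM in shIDH1 and 1.56, 1.65 and 1.94 FPKM in shJOSD2 replicates. It fell in shIDH1 cells (-2.07 ± 0.37 SE, edgeR adjusted p = 0.000428), with -0.10 in shJOSD2 cells (edgeR adjusted p = 0.853). Both copies were thus lowest in shIDH1 libraries.

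GSTM4 (chr1:109656099-109674836, plus strand), a mu class enzyme, showed the same order of groups. It stood at 1.60, 1.55 and 1.36 FPKM in control, 0.640, 0.478 and 0.502 FPKM in shIDH1 and 2.94, 2.88 and 2.85 FPKM in shJOSD2 replicates, without overlap. The log2 change was -1.48 ± 0.13 SE in shIDH1 cells (edgeR adjusted p = 1.49e-06) and 0.79 ± 0.13 SE in shJOSD2 cells (edgeR adjusted p = 0.000393). Between the knockdowns it was -2.27 ± 0.14 SE (edgeR adjusted p = 7.15e-08). GSTM4 shares 2.72% of its windows with neighbouring mu class genes and overlaps GSTM2 on the same strand, whose level was at most 0.0737 FPKM. GSTM3, the mu class gene of brain and testis, stood at 1.13, 1.27 and 1.06 FPKM in control, 1.44, 1.55 and 1.70 FPKM in shIDH1 and 1.28, 1.26 and 1.28 FPKM in shJOSD2 replicates. It rose in shIDH1 cells by 0.43 ± 0.14 SE (edgeR adjusted p = 0.019), a call lost with control replicate 1 alone and without control replicate 1, control replicate 3 or shIDH1 replicate 3.

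GSTZ1, the maleylacetoacetate isomerase of tyrosine breakdown, went the other way from GSTM4. It stood at 4.52, 4.75 and 4.37 FPKM in control, 5.53, 5.58 and 5.76 FPKM in shIDH1 and 3.92, 3.66 and 3.73 FPKM in shJOSD2 replicates, and the groups did not overlap. The log2 change was 0.30 ± 0.07 SE in shIDH1 cells (edgeR adjusted p = 0.00317) and -0.42 ± 0.07 SE in shJOSD2 cells (edgeR adjusted p = 0.000499). The difference between the knockdowns was 0.72 ± 0.07 SE (edgeR adjusted p = 4.11e-06).

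GSTA4, the alpha class enzyme that conjugates the lipid peroxidation product 4-hydroxynonenal, rose in both knockdowns. It stood at 3.51, 3.43 and 3.26 FPKM in control, 5.68, 5.36 and 4.89 FPKM in shIDH1 and 6.46, 7.20 and 6.26 FPKM in shJOSD2 replicates. The log2 change was 0.64 ± 0.11 SE in shIDH1 cells (edgeR adjusted p = 0.000313) and 0.81 ± 0.11 SE in shJOSD2 cells (edgeR adjusted p = 8.12e-05). The difference between the knockdowns did not pass the test (-0.18 ± 0.11 SE, edgeR adjusted p = 0.209).

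The summed level of the fibroblast markers was also higher in both knockdowns, as were the levels of GSTA4 and CYP4V2. Of 7 tested fibroblast markers, 5 rose and 0 fell in shIDH1 cells (median log2 change 1.53) and 3 rose and 0 fell in shJOSD2 cells (0.84). Of all tested genes 50.1% and 38.3% were called, of which 24.5% and 18.2% of all were higher. ACTA2, smooth muscle actin, made up most of the sum, at 11.7 to 13.8 FPKM in control, 26.1 to 28.4 with shIDH1 and 27.5 to 28.6 with shJOSD2. PDGFRA and PDGFRB, receptors of platelet-derived growth factor, rose in both knockdowns, whereas DCN, LUM and COL3A1, matrix genes of fibroblasts, had at most 0.0425 FPKM in a library. COL1A1 was at 1.74 to 2.21 FPKM in control, 5.14 to 6.08 with shIDH1 and 1.75 to 2.22 with shJOSD2. THY1 was at 1.01 to 1.21, 0.757 to 1.10 and 1.51 to 1.59 FPKM in these groups. The part of these markers in the changes of GSTA4 and CYP4V2 was not tested.

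The 2 most abundant genes of the set had small fitted changes. GSTO1, an omega class thioltransferase, stood at 31.1, 31.5 and 35.3 FPKM in control, 36.9, 39.1 and 39.8 FPKM in shIDH1 and 37.7, 44.4 and 42.2 FPKM in shJOSD2 replicates. Its log2 change was 0.24 ± 0.08 SE in shIDH1 cells (edgeR adjusted p = 0.02), lost without control replicate 1 (0.20, edgeR adjusted p = 0.0631), without shIDH1 replicate 2 and without shIDH1 replicate 3, and 0.20 ± 0.08 SE in shJOSD2 cells (edgeR adjusted p = 0.0615). GSTK1, the kappa class enzyme of mitochondria and peroxisomes, stood at 14.9, 15.0 and 14.3 FPKM in control, 15.2, 14.5 and 14.1 FPKM in shIDH1 and 19.9, 19.5 and 21.1 FPKM in shJOSD2 replicates. It rose in shJOSD2 cells (0.30 ± 0.06 SE, edgeR adjusted p = 0.00116), with -0.02 ± 0.06 SE in shIDH1 cells (edgeR adjusted p = 0.834). Every shJOSD2 library lay above every other library.

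GSTP1 (chr11:67583742-67586656, plus strand), the pi class enzyme that is abundant in normal bile duct epithelium, split the control group. It stood at 0.495, 6.69 and 8.12 FPKM in control replicates 1 to 3, at 0.497, 0.466 and 0.422 FPKM in shIDH1 and at 0.471, 0.710 and 0.398 FPKM in shJOSD2 replicates. Control replicate 1 lay among the knockdown libraries, and the other control libraries far above them. Over all libraries GSTP1 was called lower in shIDH1 cells (log2 change -3.47 ± 0.72 SE, edgeR adjusted p = 0.00141) and in shJOSD2 cells (-3.41 ± 0.71 SE, edgeR adjusted p = 0.00234). With control replicate 1 alone the changes were -0.06 (edgeR adjusted p = 0.949) and -0.0038 (edgeR adjusted p = 1). Without it they were -4.00 (edgeR adjusted p = 1.04e-07) and -3.94 (edgeR adjusted p = 4.35e-07). Of 13258 genes of at least 1 FPKM, 95 (0.717%) were in control replicate 1 at no more than 1/2 of both other control libraries, APOA1 among them. The same rule gave similar numbers for the other control libraries, with 86 genes (0.649%) for replicate 2 and 93 (0.701%) for replicate 3. Whether the fall of GSTP1 belongs to the knockdowns cannot be told apart from the difference among the control libraries.

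Below 1 FPKM, 30 genes were tested and 9 were called in at least 1 comparison. GSTM1 fell in shIDH1 cells (-1.71 ± 0.50 SE, edgeR adjusted p = 0.0132) on 35 to 47 counts per control library and 10 to 16 per shIDH1 library. GSTM2 rose in shIDH1 cells (1.47 ± 0.50 SE, edgeR adjusted p = 0.0278) and shJOSD2 cells (1.69 ± 0.50 SE, edgeR adjusted p = 0.0184), from 9 to 13 counts to 24 to 47. These mu class genes share 38.0% and 40.7% of their windows with neighbours, so their values are uncertain, and the GSTM2 calls were lost in 8 and 3 of the 18 alternatives that gave a value. GSTO2, a dehydroascorbate reductase, fell in shIDH1 cells (-0.64 ± 0.19 SE, edgeR adjusted p = 0.0117). CYP4F12, a fatty acid hydroxylase, was higher (1.02 ± 0.33 SE, edgeR adjusted p = 0.0227) and CYP2D6, an oxidase of many drugs, lower (-0.98 ± 0.30 SE, edgeR adjusted p = 0.0195) in shIDH1 than in shJOSD2 cells. The calls of GSTO2, CYP4F12 and CYP2D6 were lost in 3, 4 and 2 of the 19 alternatives that gave a value, and CYP2D6 shares 13.1% of its windows with its pseudogenes.

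The electron donors of P450 enzymes and the P450-binding PGRMC1 and PGRMC2 were measured alongside. Each rise or fall named in the pathway lists passed the edgeR test. Of these 9 partner genes, 1 rose and 5 fell in shIDH1 cells, and 0 rose and 2 fell in shJOSD2 cells. Of all tested genes 50.1% and 38.3% were called. POR, the reductase shared by all microsomal P450 enzymes, had 13.8 ± 1.01 FPKM in control cells, 13.4 ± 1.69 with shIDH1 and 14.4 ± 0.840 with shJOSD2 (SD, n = 3), with log2 changes of -0.05 (edgeR adjusted p = 0.719) and -0.10 (edgeR adjusted p = 0.513). CYB5B, the cytochrome b5 of the outer mitochondrial membrane, fell by 1.21 ± 0.09 SE in shIDH1 and by 1.08 ± 0.09 SE in shJOSD2 cells on the log2 scale. CYB5R3, its reductase, fell by 0.93 ± 0.05 SE and by 0.42 ± 0.05 SE. PGRMC1, FDX1 and FDXR, a P450-binding haem protein and the mitochondrial ferredoxin with its reductase, fell in shIDH1 cells by 0.46, 0.39 and 0.26, where FDX1 was lost with control replicate 1 alone (edgeR adjusted p = 0.136).

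Of 23 sensing factor genes, 21 were tested, and 8 rose and 7 fell in shIDH1 cells, while 6 rose and 6 fell in shJOSD2 cells, beside the same 50.1% and 38.3% of all tested genes. AHR, the aryl hydrocarbon receptor, had 8.57 ± 1.25 FPKM in control cells, 15.3 ± 0.911 with shIDH1 and 7.67 ± 0.728 with shJOSD2 (SD, n = 3). It rose by 0.84 ± 0.09 SE in shIDH1 cells and fell by 0.30 ± 0.09 SE in shJOSD2 cells (edgeR adjusted p = 0.0213 for the fall). TIPARP, a target of the receptor that also limits it, rose by 0.40 ± 0.12 SE in shIDH1 cells (edgeR adjusted p = 0.0112) and fell by 0.86 ± 0.12 SE in shJOSD2 cells. AHRR, its repressor, was not called in either knockdown and stayed at a mean of 0.239 FPKM or less. NFE2L2, the activator of antioxidant genes, rose by 0.82 ± 0.06 SE in shIDH1 cells, and BACH1, its competitor, by 1.36 ± 0.07 SE in shIDH1 and 0.63 ± 0.07 SE in shJOSD2 cells. PPARA, the fatty acid receptor that drives CYP4A genes, rose by 2.03 ± 0.10 SE and 0.97 ± 0.10 SE. NR0B2, the bile acid induced repressor, fell by 1.07 ± 0.24 SE in shIDH1 cells and rose by 1.49 ± 0.23 SE in shJOSD2 cells, and the fall was lost with control replicate 1 alone (edgeR adjusted p = 0.0871).

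Of 25 other phase I and phase II enzyme genes in the table, 23 were tested, and 8 rose and 6 fell in shIDH1 cells, while 6 rose and 7 fell in shJOSD2 cells, where 50.1% and 38.3% of all tested genes were called. SULT1C2, a sulfotransferase, rose by 4.02 ± 0.31 SE in shIDH1 and 2.07 ± 0.30 SE in shJOSD2 cells, from 0.0892 ± 0.0452 FPKM in control to 1.48 ± 0.196 and 0.423 ± 0.113 FPKM (SD, n = 3). NQO1, the quinone reductase known as a target of NFE2L2, had 16.7 ± 1.94 FPKM in control cells, 9.41 ± 0.614 with shIDH1 and 6.15 ± 0.284 with shJOSD2 (SD, n = 3), and fell by 0.83 and 1.59 on the log2 scale. CBR3, a carbonyl reductase, fell by 1.90 ± 0.16 SE and 1.12 ± 0.16 SE. EPHX1, the microsomal epoxide hydrolase that acts on P450 products, rose by 0.85 ± 0.08 SE in shIDH1 cells.

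The genes that supply UDP-glucuronate and glutathione include the importer of cystine and the makers and breakers of glutathione. Of 17 genes, 11 rose and 4 fell in shIDH1 cells, and 1 rose and 8 fell in shJOSD2 cells. Of all tested genes 24.5% rose and 25.6% fell in the former, and 18.2% rose and 20.1% fell in the latter. The list's median log2 change was 0.63 in shIDH1 and -0.36 in shJOSD2 cells, against 0.01 and 0.03 over all tested genes. SLC7A11, the cystine importer that feeds glutathione synthesis, had 3.41 ± 1.10 FPKM in control cells, 9.65 ± 1.65 with shIDH1 and 1.46 ± 0.106 with shJOSD2 (SD, n = 3). It rose by 1.51 ± 0.19 SE and fell by 1.37 ± 0.19 SE. CHAC1, which breaks glutathione down, rose by 1.60 ± 0.15 SE in shIDH1 cells and fell by 1.30 ± 0.16 SE in shJOSD2 cells. UGDH, which makes UDP-glucuronate, fell by 0.69 ± 0.12 SE in shJOSD2 cells. GGCT and CHAC2, enzymes of glutathione breakdown, fell by 2.65 ± 0.17 SE and 2.16 ± 0.27 SE in shIDH1 cells, so the list did not move as 1 block.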

How the data were processed

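The deposited table gives a count and an FPKM value for 36225 genes in each of 9 libraries. The deposited counts are raw whole numbers per the file headers. Of those from 1 to 20, 30.2% are multiples of 4, so 1 fragment may carry several counts. The deposited FPKM columns, named so per the file headers, are scaled by gene length and library size. Per the submitters' processing notes, the build was GRCh38 and the tools included HISAT2 2.0.4 and StringTie 1.3.4d. How reads were counted, and whether by strand, is not given in the sources used here.

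All 9 libraries entered 1 fit in edgeR 4.0.16 (R 4.3.3) with filterByExpr (21492 genes), TMM factors, a mean per group and quasi-likelihood F-tests, adjusted by Benjamini-Hochberg over all tested genes at 0.05. Each SE divides the size of the log2 change by the root of F, and each SD covers 3 libraries. Alternatives used DESeq2 1.42.0, limma 3.58.1 on log2(FPKM + 1) and log2(FPKM + 0.1), other scalings and filters, counts divided by 4, a replicate block, control replicate 1 as the lone control, whose spread was assumed to be that of the other groups, and each library left out. Promoters came from RefSeq (GRCh38.p14), and shared 100-base windows from the longest coding transcripts of GENCODE v29. Figures were drawn with matplotlib 3.10.9.

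The gene set and all lists were chosen with earlier results of these data known. Values in every library are given for genes of at least 1 FPKM in a group; from each pathway list up to 5 called genes of at least 1 FPKM with the largest change were eligible. CYP2U1, CYP7B1, CYP19A1, CYP27A1, the genes named as near the floor and GSTT2 were named outside that rule after their values were seen. So were AHRR, POR and, in shIDH1 cells, TIPARP. The fit was tested on simulated counts with known changes. The share of genes changed there was far below the 50.1% and 38.3% called in the data. The recovery therefore does not give the power of the tests reported here. In the simulated shIDH1 comparison (20763 genes), recovery was 27 of 69 at 1.5-fold, 29 of 58 at 2-fold and 46 of 61 at 4-fold, and 4 of 106 calls were false. In that of shJOSD2 (20741 genes), it was 28 of 70, 39 of 65 and 49 of 58, and 4 of 120 calls were false.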

Additional observations from a re-analysis of the deposited data

How the results depend on the processing

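The number of genes of the set called stayed within 1.5 times its main value under every alternative run; leaving out 1 library gave 19 to 21 genes in shIDH1 against control, 13 to 17 in shJOSD2 against control and 14 to 22 between the knockdowns. Replicate numbers did not pair the samples, since the deviations of 9 same-numbered pairs correlated at -0.0818 to 0.0744 and 0 exceeded 0.1; with the replicate block 19, 15 and 18 genes were called. Of 52 called gene results, 32 held under every alternative that gave a value and 0 changed sign. Among the results of genes of at least 1 FPKM that were not called, signs changed in 7, at adjusted p of 0.248 or more. Uncalled results of genes under 1 FPKM are not part of that number. Signs changed there too, as for CYP19A1 in both knockdowns against control, whose values are given above. Leaving out 1 library moved the log2 change in shJOSD2 cells from -0.067 to 0.016 for CYP2R1, -0.14 to 0.24 for CYP2U1, -0.035 to 0.12 for CYP3A5 and -0.063 to 0.084 for GSTM3, that in shIDH1 cells from -0.038 to 0.015 for GSTK1, and that between the knockdowns from -0.016 to 0.097 for GSTO1 and -0.21 to 0.21 for GSTP1. Library totals gave 0.12 for CYP2R1, 0.14 for GSTM3 and -0.11 for GSTO1. Testing only genes of at least 1 FPKM gave 0.022 for CYP2R1, 0.026 for GSTK1 and 0.045 for GSTM3. Limma gave 0.093 and 0.11 for CYP2R1, 0.079 and 0.14 for GSTM3 and -0.099 and -0.10 for GSTO1 with the larger and the smaller pseudocount. Counts divided by 4 gave 0.0053 for GSTK1 and 0.011 for GSTM3, and the lone control -0.31 for CYP2U1, -0.11 for CYP3A5 and 0.054 for GSTM3. The cause was not tested. Limma on log2(FPKM + 1) shrinks changes of genes under 1 FPKM by construction.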
